A study of Mus musculus with 8 samples.

Results

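The genes described here are the inhibitors of cyclin-dependent kinases (CDKs) together with *Trp53* and *Rb1*, 9 genes taken by name from the 54532 genes of the count table: *Cdkn1a*, *Cdkn1b*, *Cdkn1c*, *Cdkn2a*, *Cdkn2b*, *Cdkn2c*, *Cdkn2d*, *Trp53* and *Rb1*. RNAseq was done on mG+ cells sorted by FACS from female mice at 8 months of age, in 8 libraries. The KO libraries came from *Tie2e-cre*; *Tert* fl/fl; *mTmG* mice (EC-*Tert*-KO) and the WT libraries from *Tie2e-cre*; *Tert*+/+; *mTmG* littermates, so that *Cre* and the reporter were shared by both genotypes. There was 1 KO and 1 WT library for each of 4 pairs: subcutaneous adipose tissue (SAT) on high-fat diet (HFD), SAT on chow, visceral adipose tissue (VAT) on chow, and gastrocnemius muscle on chow. *Cre* was driven by the endothelial *Tie2e* promoter, and the membrane GFP (mG) of *mTmG* marks every cell that has recombined the reporter and the descendants of that cell. Activity of *Tie2* promoters is also known in part of the blood lineage. Whether a library held cells of 1 mouse or of several is not given in the sources used here.

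In the cell cycle, cyclin D with CDK4 or CDK6, and then cyclin E with CDK2, phosphorylate the RB protein coded by *Rb1*, which releases E2F factors and lets the cell enter S phase. The INK4 family (*Cdkn2a*, *Cdkn2b*, *Cdkn2c*, *Cdkn2d*) binds CDK4 and CDK6 and keeps cyclin D away, whereas the CIP/KIP family (*Cdkn1a*, *Cdkn1b*, *Cdkn1c*) binds assembled cyclin-CDK complexes and blocks CDK2 in particular. *Trp53* codes for p53, which induces *Cdkn1a* after DNA damage, and p16, p21 and p53 are the usual markers of a senescent arrest, including in endothelium.

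*Cdkn2a* is 1 entry in the count table but codes for unrelated proteins from separate first exons, and the junctions of both transcripts are printed here because the counts cannot tell them apart. In GENCODE M21 (GRCm38, minus strand of chromosome 4), transcript Cdkn2a-201, which codes for p16, starts with exon 1 at 89281986 to 89282192. Transcript Cdkn2a-202, which codes for p19ARF, starts with exon 1 at 89294334 to 89294653. Both join the same exon 2 at 89276645 to 89276985. Below are the last 24 bases of each first exon, in capitals, and the first 24 bases of exon 2, 5′ to 3′.
Cdkn2a-201: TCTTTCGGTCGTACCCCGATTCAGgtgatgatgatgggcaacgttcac
Cdkn2a-202: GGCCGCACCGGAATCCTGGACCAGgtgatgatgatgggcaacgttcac
The transcripts share 575 bases, and 50.9% of the 1172 bases counted for the gene belong to only 1 of them, so a *Cdkn2a* count is the sum of both.

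*Cdkn1a* has an upstream and a downstream start, and the bases before each are printed because the gene links p53 to the inhibitors and had the widest range of levels among the members with over 100 counts in every library. The sequences are RefSeq's for GRCm38.p6, plus strand, 250 bases up to the start. Capitals mark the core of a pair of p53 half-sites (CATG, any 6 bases, CATG, which reads alike on both strands) and the GC box GGGCGG, searched on both strands. The motifs did not overlap in these windows.
Cdkn1a upstream start, chr17:29090729-29090978: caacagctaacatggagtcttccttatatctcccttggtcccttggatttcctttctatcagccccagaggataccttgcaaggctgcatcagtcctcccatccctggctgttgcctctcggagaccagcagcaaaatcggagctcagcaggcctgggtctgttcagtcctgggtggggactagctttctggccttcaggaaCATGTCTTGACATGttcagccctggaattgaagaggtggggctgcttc
Cdkn1a downstream start, chr17:29093519-29093768: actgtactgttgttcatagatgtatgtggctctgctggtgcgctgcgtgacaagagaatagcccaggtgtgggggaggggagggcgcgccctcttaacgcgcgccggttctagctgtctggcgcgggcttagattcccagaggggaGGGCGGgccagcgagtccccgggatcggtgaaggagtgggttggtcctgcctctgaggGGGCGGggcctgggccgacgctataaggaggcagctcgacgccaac
The p53 core pair was found in 0.712% of 32851 windows of 300 bases around gene starts and, among the members, only in the upstream *Cdkn1a* window. The GC box was found in 35.7% of all windows and in 6 of the 7 members that have a window in this table. *Cdkn1c* and *Rb1* have none.

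Totals per library ranged from 6214269 to 18855772 counts, and a level is given as CPM, the count relative to the library total after TMM scaling. With 1 library per genotype in a pair there is no replicate check. A ratio of KO to WT therefore compares those libraries only, and its 95% interval (exact conditional binomial) covers counting error alone. *Tert* was lower in KO in SAT on HFD, SAT on chow and muscle, but had 3 counts in the VAT library labelled WT and 9 in the one labelled KO. Some libraries stood apart. In SAT on HFD the long noncoding RNA *Gm26917* took 9.72% of the WT counts, and in SAT on chow *Malat1* had 299 CPM in WT against 6005 CPM in KO and 2176 to 5186 CPM elsewhere. All 12 endothelial markers were detected in every library, with a sum of 383 to 2667 CPM that was lowest in SAT on HFD. All 7 macrophage markers were detected too (375 to 12607 CPM), as were those of T cells and B cells.

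*Cdkn1a* (ENSMUSG00000023067, chromosome 17, 29090976 to 29100727), which codes for p21, had its highest levels in VAT and its largest genotype ratio in SAT on chow. Its level in WT and KO was 113 and 61.6 CPM in SAT on HFD, 34.9 and 143 CPM in SAT on chow, 389 and 437 CPM in VAT, and 276 and 182 CPM in muscle. The WT library of SAT on chow was the lowest of the 8, and the VAT libraries were above all others. In log2 terms the ratio of KO to WT was 2.03 in SAT on chow (1.90 to 2.17), which is 4.08-fold higher in KO. It was lower in KO in SAT on HFD at −0.88 (−1.02 to −0.73) and in muscle at −0.60 (−0.67 to −0.53), and 0.17 (0.11 to 0.23) in VAT between the libraries so labelled. On the opposite strand, *AC167363.2* overlaps *Cdkn1a* and had 28 to 76 counts, against 564 to 5979 for *Cdkn1a*.

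*Cdkn1b* (ENSMUSG00000003031, chromosome 6, 134920401 to 134925513), which codes for p27, was the most even of the CIP/KIP genes. WT and KO had 230 and 262 CPM in SAT on HFD, 148 and 327 CPM in SAT on chow, 168 and 152 CPM in VAT, and 349 and 311 CPM in muscle. The ratio was 1.14 (1.07 to 1.21) on the log2 scale in SAT on chow, 2.21-fold higher in KO, and between −0.17 and 0.18 in the other 3 pairs. *Cdkn1c* (ENSMUSG00000037664, chromosome 7, 143458339 to 143461050), which codes for p57 and is expressed from the maternal allele, was the least abundant of the 3. It had 10.8 and 2.70 CPM in SAT on HFD, 5.88 and 11.2 CPM in SAT on chow, 15.9 and 17.1 CPM in VAT, and 20.1 and 15.8 CPM in muscle. In SAT on HFD it was 3.96-fold lower in KO, a log2 ratio of −1.98 (−2.63 to −1.41) on 75 and 35 counts. In SAT on chow the direction was opposite, 0.93 (0.57 to 1.31).

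*Kcnq1ot1*, the noncoding RNA of the imprinted domain that silences *Cdkn1c* on the paternal allele, differed in the same directions in both SAT pairs. It had 98.0 and 24.3 CPM in WT and KO of SAT on HFD, a log2 ratio of −2.01 (−2.21 to −1.82), and 3.09 and 31.4 CPM in SAT on chow, a ratio of 3.33 (2.92 to 3.79). Of the 5 genes listed for this domain, 3 or 4 had enough counts in a pair. Beyond 2-fold, 1 was higher and 1 lower in SAT on HFD, 1 was higher in SAT on chow, and none differed in VAT or muscle. Over all genes, 23.8% were beyond 2-fold in SAT on HFD and 30.6% in SAT on chow. *Kcnq1ot1* was the lower gene in SAT on HFD and the higher one in SAT on chow. The higher gene in SAT on HFD was *Slc22a18*, with 0 counts in WT and 23 in KO.

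**Figure D1:**
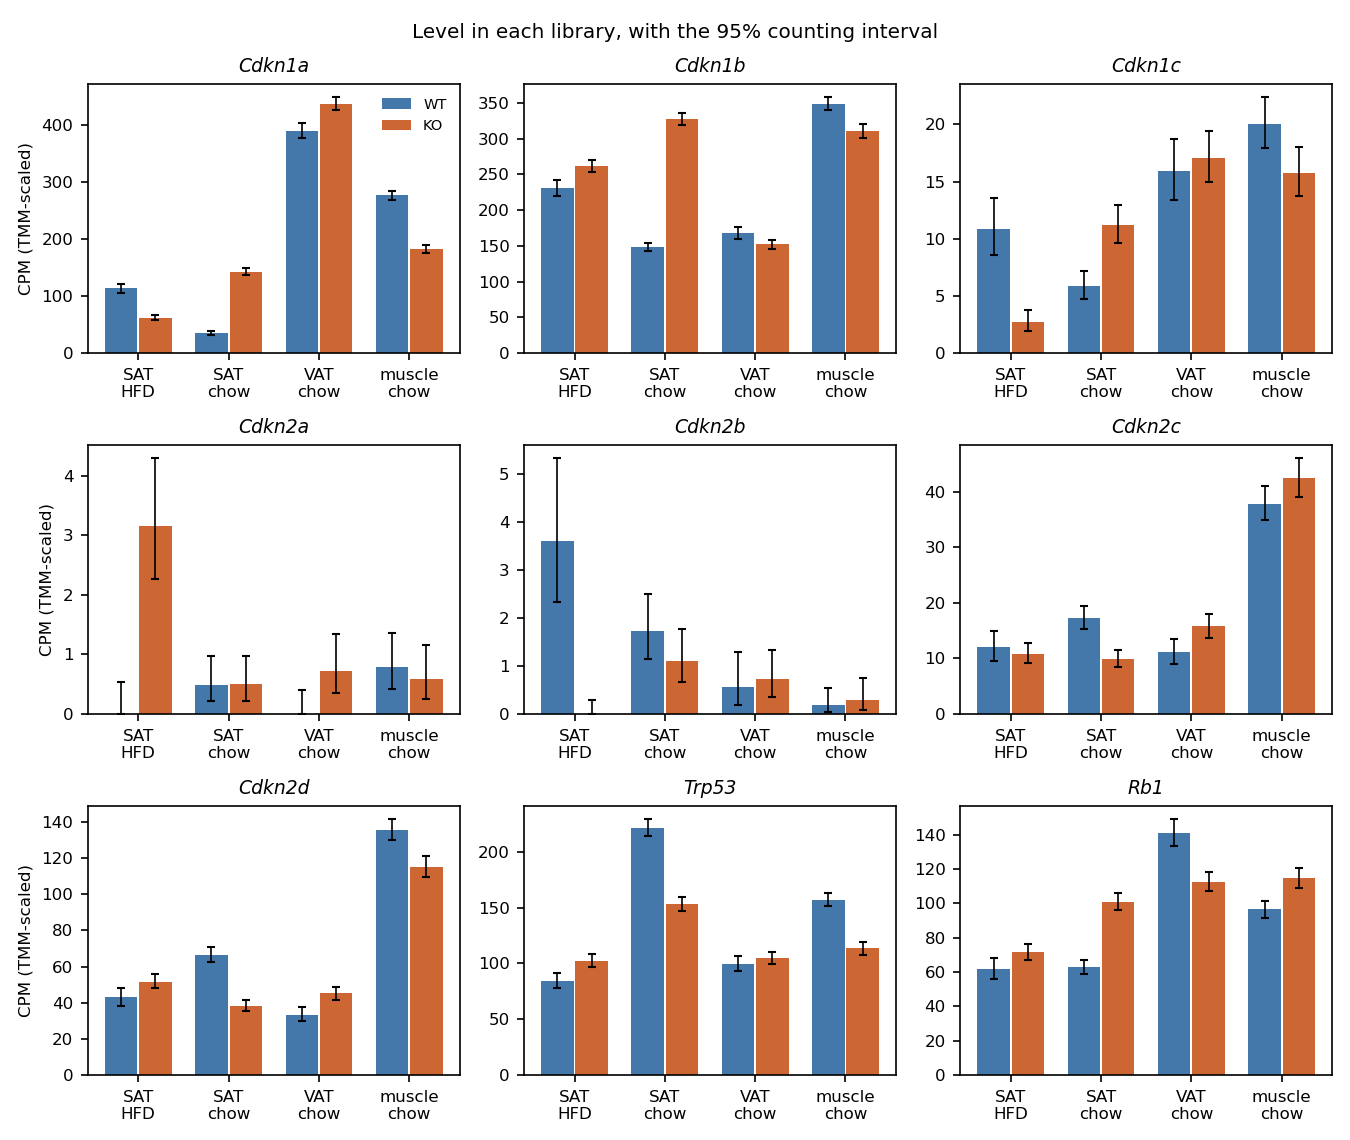
Level of each of the 9 genes in CPM (y axis, linear from 0) by tissue and diet (x axis), with WT in blue and KO in orange and bars for the 95% Poisson counting interval of 1 library each. *Cdkn1a* stands highest in both VAT libraries, *Cdkn2c* and *Cdkn2d* in both muscle libraries, and *Cdkn2a* and *Cdkn2b* stay below 4 CPM throughout.

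Of the INK4 genes, *Cdkn2a* and *Cdkn2b* lie 11645 bases apart on chromosome 4 and were near the detection limit. *Cdkn2a* (ENSMUSG00000044303, 89274471 to 89294653) had 0 counts in WT and 41 in KO of SAT on HFD, 8 in either library of the SAT chow pair, 0 and 10 in VAT, and 13 and 8 in muscle. *Cdkn2b* (ENSMUSG00000073802, 89306299 to 89311039), which codes for p15, had 25 and 0 counts in SAT on HFD, 28 and 18 in the SAT chow pair, 5 and 10 in VAT, and 3 and 4 in muscle. In SAT on HFD the neighbours thus went opposite ways.

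With the 0 set to 3 counts and the other count taken as exact, *Cdkn2a* was 7.3-fold higher and *Cdkn2b* 15.6-fold lower in KO of SAT on HFD. The exact intervals, which carry the counting error of both libraries, ended nearer to 0, at a log2 ratio of 2.50 for *Cdkn2a* and −3.56 for *Cdkn2b*. These zeros were not rare for genes of like depth in that pair. WT held no count for 32.9% of the 2297 genes whose KO count lay between 27 and 62. KO held none for 33.8% of the 2740 genes whose WT count lay between 16 and 38. In VAT, *Cdkn2a* was 2.19-fold higher in the library labelled KO on the same 3-count scale, but its interval began at 0.56 on the log2 scale and so did not lie beyond 2-fold, and 21.2% of the 3016 genes with 6 to 15 counts there had 0 counts in the library labelled WT. In SAT on chow the log2 ratio was 0.00 (−1.61 to 1.61) for *Cdkn2a* and −0.62 (−1.58 to 0.27) for *Cdkn2b*, so that a difference was not detectable at this depth. The same holds for *Cdkn2a* in muscle, at −0.42 (−1.91 to 0.94).

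*Cdkn2c* (ENSMUSG00000028551, chromosome 4, 109660876 to 109667189) and *Cdkn2d* (ENSMUSG00000096472, chromosome 9, 21288410 to 21291407), which code for p18 and p19INK4D, carried most of the INK4 signal. *Cdkn2c* had 12.0 and 10.9 CPM in SAT on HFD, 17.3 and 9.92 CPM in SAT on chow, 11.1 and 15.8 CPM in VAT, and 37.9 and 42.4 CPM in muscle. *Cdkn2d* had 43.2 and 51.7 CPM in SAT on HFD, 66.5 and 38.3 CPM in SAT on chow, 33.4 and 45.2 CPM in VAT, and 136 and 115 CPM in muscle. For both genes the muscle libraries lay above the other 6. Both were lower in KO of SAT on chow by about the same amount, with log2 ratios of −0.80 (−1.09 to −0.52) and −0.80 (−0.94 to −0.65). These values depended on gene length: with the trend of the ratio on length removed they were −0.34 and −0.21, whereas that of *Cdkn1a* became 2.34 and that of *Cdkn1b* 1.12. *Cdkn2c* and *Cdkn2d* were higher in the VAT library labelled KO, at 0.51 (0.16 to 0.86) and 0.43 (0.23 to 0.64).

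*Trp53* (ENSMUSG00000059552, chromosome 11, 69580359 to 69591873) had its highest level in the WT library of SAT on chow and was lower in KO there and in muscle. WT and KO had 84.6 and 103 CPM in SAT on HFD, 222 and 153 CPM in SAT on chow, 99.7 and 105 CPM in VAT, and 157 and 114 CPM in muscle. The log2 ratio was 0.28 (0.14 to 0.42), −0.53 (−0.61 to −0.46), 0.08 (−0.05 to 0.20) and −0.47 (−0.56 to −0.38) in that order, so no pair reached 2-fold. The SAT chow ratio of *Trp53* left its counting interval under other processing. It was −0.43 with DESeq2's size factors, −0.31 with library totals, −0.35 with upper quartile factors and −0.39 with the length trend removed. Its pseudogene *Trp53-ps* had 0 to 20 counts per library. *Rb1* (ENSMUSG00000022105, chromosome 14, 73183673 to 73325822) had 61.9 and 71.5 CPM in SAT on HFD, 62.7 and 101 CPM in SAT on chow, 141 and 113 CPM in VAT, and 96.4 and 115 CPM in muscle. Its ratio was largest in SAT on chow at 0.69 (0.57 to 0.80) and below 0 in VAT at −0.32 (−0.43 to −0.22). *Rcbtb2* and *Lpar6* overlap *Rb1* on the opposite strand, with 229 to 907 and 358 to 466 counts, and whether strand was used in the counting is not given in the sources used here.

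Counted over the members, 3 of 9 in SAT on HFD had an interval wholly beyond 2-fold (*Cdkn2a* higher, *Cdkn1c* and *Cdkn2b* lower in KO), where 23.8% of 15839 genes did. In SAT on chow it was 2 of 8 (*Cdkn1a* and *Cdkn1b*, both higher) against 30.6% of 16908 genes. In VAT it was 0 of 7 against 4.5%, and in muscle 0 of 8 against 4.77%. An interval leaving out a ratio of 1 was found for 8 of 9, 7 of 8, 5 of 7 and 6 of 8 members in these pairs, against 72.6%, 81.3%, 51.3% and 55.9% of all genes. With so few members, a share of them moves by over 10 percentage points with each gene, and the shares with an interval leaving out 1 were above those of all genes in all 4 pairs. A counting interval narrows as counts rise. *Cdkn1a*, *Cdkn1b*, *Cdkn2d*, *Trp53* and *Rb1* averaged 920 to 3268 counts over the 8 libraries, against a minimum mean of 10 for all genes. The shares were not compared at like depth. The median log2 ratio of the members was 0.18, 0.08, 0.11 and −0.29, and that of all genes 0.06, 0.00, 0.01 and 0.00. With DESeq2's size factors, upper quartile factors or library totals, the median of all genes in SAT on chow moved by 0.11 to 0.23. The share of genes higher in KO among those beyond 2-fold went from 62.5% to between 69.6% and 77.5%, and to 72.3% with the length trend removed. In muscle, library totals moved the median by 0.16 and that share from 57.8% to 70.2%, and brought the ratio of *Cdkn1b* there close to 0. The members beyond 2-fold were the same in number under each.

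**Figure D2:**
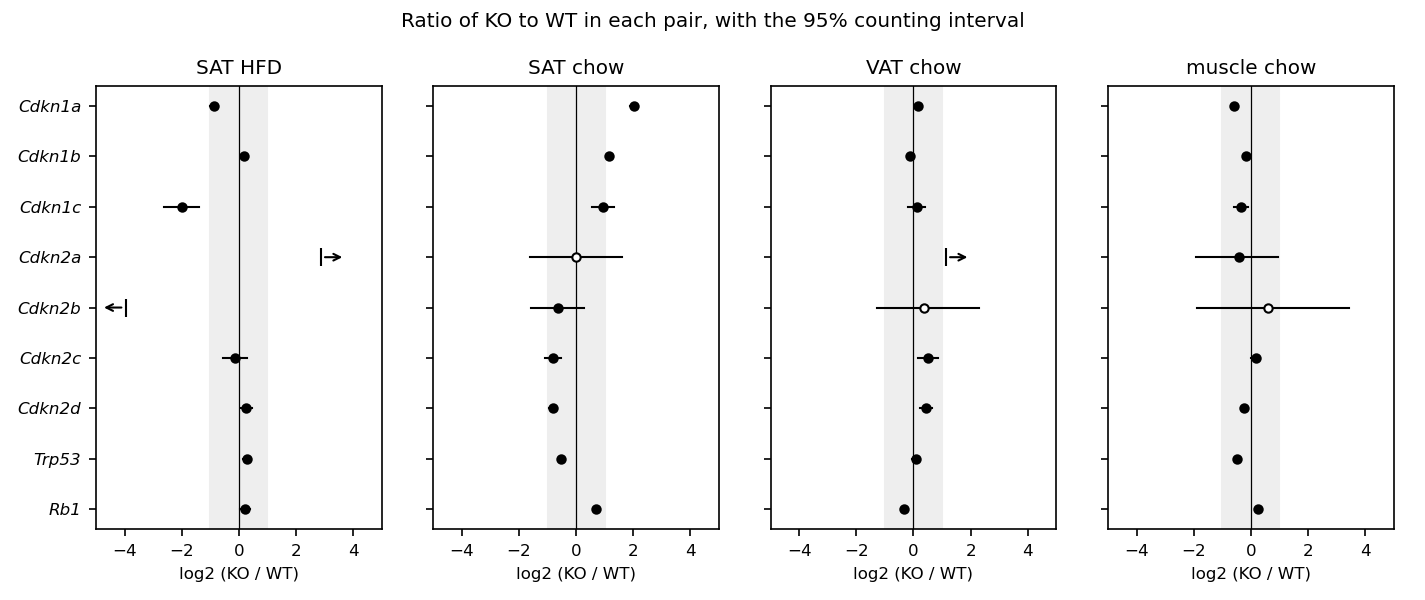
log2 ratio of KO to WT (x axis) for the 9 genes (y axis) in the 4 pairs, with lines for the 95% counting interval, open points for a mean under 10 counts, and arrows from the ratio with a 0 set to 3 counts. Grey marks ratios within 2-fold; *Cdkn1a* and *Cdkn1b* lie to the right of it in SAT on chow, and in VAT and muscle the points stay inside it, apart from the *Cdkn2a* arrow in VAT, which starts at 2.19-fold.

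A KO effect shared by all 4 pairs was tested with edgeR (quasi-likelihood, tissue and diet as a block). None of the 9 members had a Benjamini-Hochberg adjusted p under 0.05, and none had an unadjusted p under 0.05 either. Over all 16971 genes 1 was called (0.00589%), and 277 had an unadjusted p under 0.05. DESeq2's Wald test also called no member. The estimate was 0.14 (SE 0.47) for *Cdkn1a*, −0.16 (SE 0.23) for *Trp53* and 0.21 (SE 0.23) for *Rb1* on the log2 scale. For *Cdkn1a* it turned to −0.43 without the SAT chow pair. The widest errors were those of *Cdkn2a* (2.10, SE 1.99) and *Cdkn2b* (−0.95, SE 1.77).

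Levels by tissue and diet were compared in the same fit, with 2 libraries in each group. Both VAT libraries lay above the other 6 for 1 member, *Cdkn1a*, as they did for 14.5% of 16971 genes. Both muscle libraries did so for 2 members, *Cdkn2c* and *Cdkn2d*, as for 8.46% of genes. By the test for any difference among the 4 groups (3 degrees of freedom), no member had an adjusted p under 0.05, where 7.93% of genes did. The lowest adjusted p-values were 0.0613 for *Cdkn2d*, 0.0797 for *Cdkn2c* and 0.12 for *Cdkn1a*, and all other members were at 0.239 or above.

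By single contrasts, no member was called for VAT over SAT on chow (5% of genes called), muscle over SAT on chow (1.27%), muscle over VAT on chow (2.02%) or HFD over chow in SAT (0%). *Cdkn1a* was 2.26 higher in VAT than in SAT on the log2 scale (SE 0.66, unadjusted p = 0.00915, adjusted p = 0.102 by edgeR). *Cdkn2d* was 1.66 higher in muscle than in VAT (SE 0.37, unadjusted p = 0.00215, adjusted p = 0.0722), and *Cdkn2c* 1.57 higher (SE 0.46, adjusted p = 0.157). Over SAT on chow, muscle was 1.27 (SE 0.37) higher for *Cdkn2d* and 1.57 (SE 0.46) higher for *Cdkn2c*, with adjusted p-values of 0.187 and 0.188. *Trp53* was 0.98 lower (log2 fold change −0.98, SE 0.32) in SAT on HFD than in SAT on chow, at an unadjusted p of 0.0164 and an adjusted p of 0.506, where the median of all genes was −0.32.

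Whether members were called depended on the SAT chow libraries and on the test. Without the SAT chow KO library, *Cdkn1a* (3.81, adjusted p = 0.00425 by edgeR) and *Trp53* (−1.09, adjusted p = 0.0413) were called for VAT over SAT, where 20.9% of genes then were, and *Cdkn1a* (2.90) and *Cdkn1b* (1.17) for muscle over SAT (10.5% of genes). Without either or both of the SAT chow libraries, *Cdkn1b*, *Cdkn2c* and *Cdkn2d* were called for muscle over VAT, with adjusted p-values from 0.012 to 0.0424 and 6.79% to 6.96% of genes called. DESeq2's Wald test called *Cdkn1a* for VAT over SAT (adjusted p = 0.00319, 14% of genes called) and *Cdkn2c* and *Cdkn2d* for muscle over SAT (0.0406 and 0.0435, 5.97%) and over VAT (0.0377 and 0.00251, 7.45%).

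**Figure D3:**
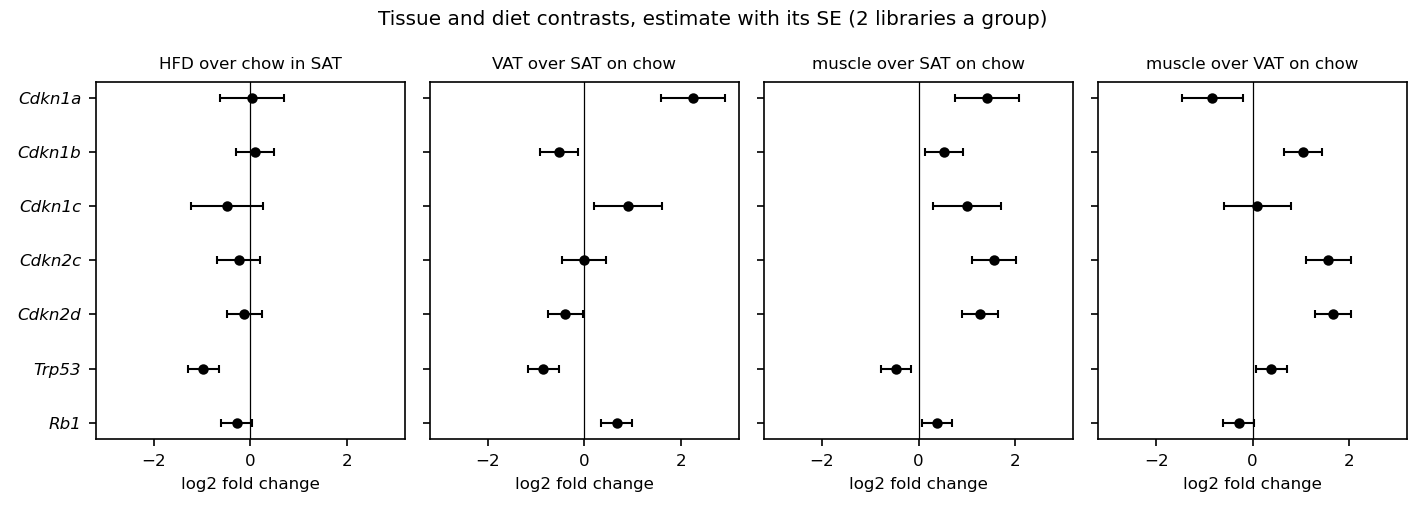
log2 fold change between tissue and diet groups (x axis) for the 7 members with at least 35 counts in every library (y axis), with bars for the SE of the edgeR fit and 2 libraries in each group. *Cdkn1a* is farthest to the right for VAT over SAT, *Cdkn2c* and *Cdkn2d* for muscle over VAT, and *Trp53* lies below 0 for HFD over chow; no point passed the adjusted threshold.

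Cell type markers also differed between tissues and within pairs. From WT to KO, the proliferation sum and *Cdkn2d* went the same way in SAT on HFD, SAT on chow and VAT. In muscle that sum was higher in KO, and *Cdkn2d* was lower. The neutrophil sum and *Cdkn2d* went the same way in both SAT pairs and opposite ways in VAT and muscle. The macrophage sum and *Cdkn1a* went the same way in SAT on HFD and muscle, and opposite ways in SAT on chow and VAT. The summed level of 7 macrophage markers was 12325 and 12607 CPM in the VAT libraries, where *Cdkn1a* was highest, against 375 to 5446 CPM in the others. Endothelial markers summed to 1841 to 2667 CPM in VAT and muscle against 383 to 727 CPM in SAT, and the T cell and B cell sums were 107 to 184 CPM in VAT against 999 to 2464 CPM in SAT. The 6 neutrophil markers summed to 11974 and 15315 CPM in muscle, where *Cdkn2c* and *Cdkn2d* were highest, against at most 282 CPM elsewhere, and 12 proliferation genes to 1344 and 1736 CPM in muscle against at most 881 CPM. In SAT on chow the sum was lower in KO for T cell (2464 to 1019 CPM), macrophage (2019 to 815 CPM) and proliferation markers (881 to 485 CPM), and higher for 8 stromal markers (777 to 3392 CPM). The stromal sum was also higher in the libraries labelled KO of VAT (1030 to 2236 CPM) and muscle (696 to 1379 CPM), as was that of 6 mural markers in SAT on chow (55.7 to 214 CPM), VAT (163 to 675 CPM) and muscle (168 to 360 CPM). Of the markers in these lists, *Ly6g* and *Mmp8* were at 0 in WT and *Ly6g* and *Cxcr2* in KO of SAT on HFD, and the mural marker *Cspg4* was at 0 in WT of both SAT pairs. The part of these cells in the values of the members was not tested. In bulk RNA of sorted cells, fewer cells of a type and less RNA per cell cannot be told apart.

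Compared per length (CPM per kb of the counted gene length), the inhibitor with the highest level differed by tissue. *Cdkn1a* made up 60.9% and 61.3% of the summed level of the 7 inhibitors in VAT, at 110 and 123 CPM per kb. *Cdkn2d* led in muscle with 32.5% and 33.8%, at 86.3 and 73.3 CPM per kb, and *Cdkn1b* led in SAT on HFD with 41.4% and 49.7%. The leader differed between the SAT chow libraries, *Cdkn2d* in WT (44.2%) and *Cdkn1b* in KO (49.0%). In this pair the CIP/KIP sum was 45.3 in WT and 118 CPM per kb in KO, and the INK4 sum 50.4 and 29.2, so that the INK4 genes held the larger part in WT and the CIP/KIP genes in KO. These sums were not corrected for the trend of the ratio on length. With it removed, the log2 ratios of *Cdkn2c* and *Cdkn2d* went from −0.80 each to −0.34 and −0.21. Those of *Cdkn1a* and *Cdkn1b* were then 2.34 and 1.12. In the other 6 libraries the CIP/KIP sum was the larger. The sum over all 7 was highest in muscle (265 and 217 CPM per kb) and lowest in the WT library of SAT on chow (95.7 CPM per kb).

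*Trp53* was the highest of all 9 members per length in that same library, at 54.8 CPM per kb, and *Rb1* ranged from 10.3 to 23.4 CPM per kb. *Cdkn2a* and *Cdkn2b* each gave 2.33% or less of the inhibitor sum in every library. Among all genes detected in a library, *Cdkn1a* stood above 98.3% and 98.1% in VAT and above 73.4% in WT of SAT on chow, and *Cdkn2a*, where detected, above 24.7% to 38.6%.

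**Figure D4:**
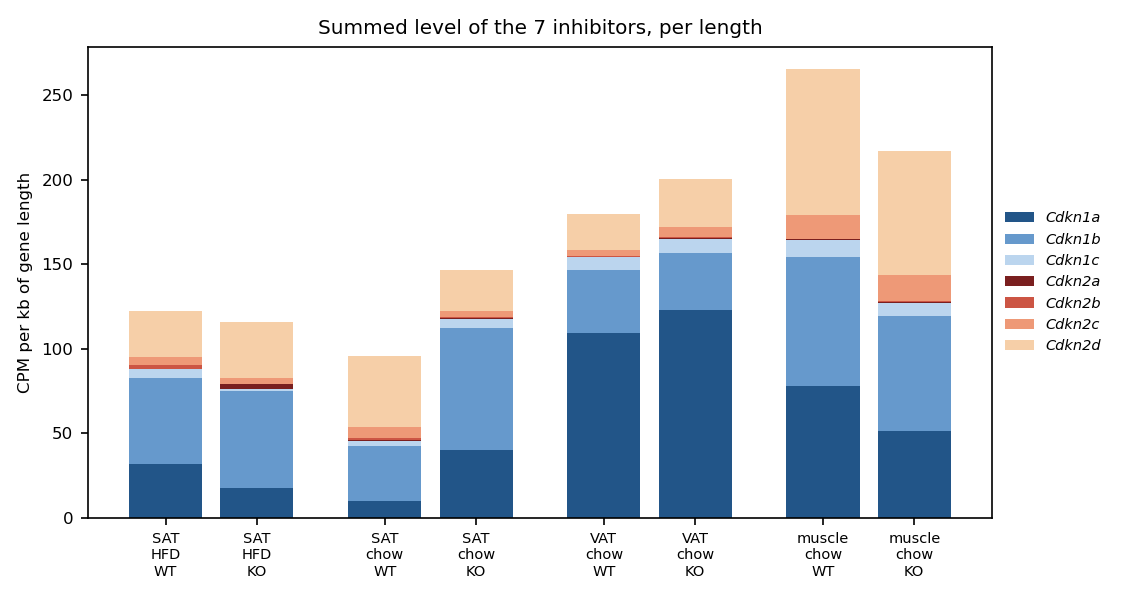
Summed level of the 7 inhibitors in CPM per kb of gene length (y axis, from 0) in each library (x axis), with CIP/KIP genes in blues and INK4 genes in reds and oranges. The *Cdkn1a* block fills most of the VAT bars, and the WT bar of SAT on chow is the lowest at 95.7.

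The pathway around the members was read from fixed lists, counting genes beyond 2-fold in each pair. The SAT chow counts below stand beside the 30.6% of all genes that were beyond 2-fold in that pair, and those of SAT on HFD beside 23.8%. Of 11 CDKs and cyclins, 4 were lower and 1 higher in KO of SAT on chow. The CDK4 partner of the INK4 proteins, *Cdk4*, had 156 and 53.5 CPM in WT and KO, a log2 ratio of −1.54 (−1.66 to −1.43), whereas *Cdk6* had 17.1 and 59.2 CPM, 1.79 (1.59 to 1.99). The mitotic genes *Ccna2* (−1.43), *Ccnb1* (−1.95) and *Cdk1* (−1.72) were the other 3 that were lower. SAT on HFD had 1 higher and 1 lower, and the VAT and muscle pairs had none. Of 12 genes of the RB family, E2F and their partners, none was beyond 2-fold in any pair.

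Of 15 further p53 targets, 4 were beyond 2-fold in either direction in SAT on chow, no larger a share than the 30.6% of all genes. All 4 were higher in KO: *Btg2* (1.11), *Trp53inp1* (1.47), *Sesn2* (1.74) and *Eda2r* (3.57, on 3 and 41 counts). Among all genes beyond 2-fold in that pair, 62.5% were higher in KO. *Bax*, the proapoptotic target, was the only 1 beyond 2-fold in SAT on HFD, lower in KO at −1.26 (−1.48 to −1.05), and none was in VAT or muscle. *Ccng1* was lower in KO of SAT on chow at −0.87 (−0.97 to −0.78), so the targets did not share a direction there, and the median of the 15 was 0.17. Of the p53 family and its regulators, the inhibitor *Mdm4* (1.70) and the kinase gene *Atm* (1.62) were higher in KO of SAT on chow. *Chek1* and *Trp63* had 0 counts in WT of SAT on HFD with 44 and 24 in KO. In that pair 32.9% of genes with 27 to 62 counts in KO, a range that holds *Chek1* but not *Trp63*, had none in WT. *Mdm2*, which codes for the ligase that degrades p53 and is itself a p53 target, had ratios from −0.41 to 0.45 over the 4 pairs.

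Among 15 regulators of the INK4/ARF locus, 4 were beyond 2-fold in either direction in SAT on chow, again no larger a share than the 30.6% of all genes. All 4 were higher in KO, as were 62.5% of all genes beyond 2-fold there. They included the H3K27 demethylase gene *Kdm6b* (76.9 to 1026 CPM, 3.74) and the activators *Ets1* (1.17) and *Ets2* (1.72). *Tbx2*, a repressor of the locus, was the fourth (3.64) and was also higher in the VAT library labelled KO (1.85). In SAT on HFD the related *Tbx3* was lower (−2.24). *Foxo3*, which activates *Cdkn1b* transcription, had 40.8 and 137 CPM in SAT on chow (1.75) and was the only 1 of 6 genes of p27 turnover and transcription beyond 2-fold in any pair. *Mtap*, the neighbour of *Cdkn2a* on the side away from *Cdkn2b*, had 0.94 in SAT on HFD and −0.99 in SAT on chow.

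Across the 4 pairs, no gene of these 8 lists was called by edgeR, with *Bax* at the lowest unadjusted p, 0.079. Between tissues, genes of these lists did pass the test. The share of all genes called, in either direction, was 2.02% for muscle over VAT and 1.27% for muscle over SAT on chow. For muscle over VAT, 4 of 11 CDKs and cyclins were higher (*Cdk1*, 3.88, adjusted p = 0.0476, with *Ccnb1*, *Ccna2* and *Ccnd3*, while the other 7, among them *Cdk4*, *Cdk6* and *Ccne1*, did not pass), as were 3 of 12 genes of the RB family and E2F (*E2f2*, 3.28, adjusted p = 0.0076, with *E2f8* and *Tfdp1*). The p53 target *Gadd45a* was 2.18 higher (SE 0.40, adjusted p = 0.0393). For muscle over SAT on chow *E2f2* (2.13) and *E2f8* (3.30) were higher. Muscle was also where *Cdkn2c* and *Cdkn2d* were highest, and where the proliferation and neutrophil sums given above were highest.

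Likeness of pattern was measured by Pearson's r of log2 CPM over the 8 libraries, among 16971 genes and as a description only, since the libraries differ in tissue, depth and cell makeup. The genes most like *Cdkn1a* were *Litaf* (r = 0.993), *Gprc5a* (0.989) and *Mafk* (0.985), and those most like *Cdkn1b* were *Pag1* (0.988), *Piga* (0.984) and *Lmtk2* (0.978). *Cdkn2c* was most like *Gadd45a* (0.99), *Iqgap3* (0.99) and *Apmap* (0.98), and *Cdkn2d* most like *Sh2d3c*, *Qsox1* and *Hmgn2* (0.97 to 0.978). For *Cdkn1c* they were *Inpp5a* (0.994), *Fmnl2* and *Slc7a11*, for *Trp53* *Gak* (0.973), *Rpl9-ps7* and *Gm9118*, and for *Rb1* *Prrg1* (0.995), *Trove2* and *Stag1*. For *Cdkn2a*, with 0 to 41 counts, they were *Rtl10*, *Gm19590* and *Gm45059*, and for *Cdkn2b*, with 0 to 28 counts, *Zfp623*, *Trav16d-dv11* and *Acoxl*. Between members, the values were most alike for *Cdkn2c* and *Cdkn2d* (0.947), *Cdkn1a* and *Rb1* (0.842) and *Cdkn1a* and *Cdkn1c* (0.824), and *Cdkn1a* and *Trp53* had −0.43.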

How the data were processed

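Counts per Ensembl gene (GRCm38/mm10), as the authors deposited them, are whole numbers with no normalization, for 8 libraries of sorted mG+ cells. The submitters' processing notes name HISAT2 2.0.5. RNA was isolated with a column kit per the labels and with Trizol per the paper's methods, and libraries were made with a SMARTER kit. The counting program, its annotation and its use of strand are not given in the sources used here. All 8 sample columns matched a label.

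Scaling was by TMM over all genes (edgeR 4.0.16, R 4.3.3). Within a pair, the log2 ratio of KO to WT used a prior count of 0.5, with the exact conditional binomial (Clopper-Pearson) interval at 95%. Intervals and the limit of 3 counts for a 0 cover counting error only. A gene was counted in a pair at a mean of at least 10 counts there, and beyond 2-fold where its whole interval was. Genes averaging 10 counts or more over the 8 libraries entered edgeR's quasi-likelihood test (robust), with pair and genotype as terms and Benjamini-Hochberg adjustment at 0.05. The SE is the estimate divided by the root of F. Tissue and diet groups hold 1 WT and 1 KO library each, which stand in for replicates, so these p-values rest on 3 residual degrees of freedom and the pooled spread. Whether samples came from separate animals is not given, and the spread may be in part technical.

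The pairing comes from tissue and diet in the labels. With the genotype means removed, paired libraries correlated at 0.253 (SAT, HFD), 0.057 (SAT, chow), 0.561 (VAT) and 0.517 (muscle), and unpaired ones at −0.33 to 0.18. The 9 members and the gene lists were chosen with earlier results of these data known. The genes named are all members, up to 3 list genes each way per pair beyond 2-fold or called, the genes a sentence on a member turns on, and the 3 genes most like each member. Genes past the first 3 of a list, *Ccng1*, *Mdm2* and *Mtap* were named after their values were seen. Alternatives were DESeq2 1.42.0 size factors and tests, library totals, upper quartile factors, TMM without mitochondrially encoded genes, other count minimums, a prior count of 5, removal of the length trend, no block, no genotype term, and leaving out each pair or library. The scripts were tested on simulated counts. Coordinates are those of the count table. Promoter windows are RefSeq's and exons GENCODE's, both on GRCm38.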

Additional observations from a re-analysis of the deposited data

Results flagged for a closer look

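For 7 of the 9 members, the counting intervals of the log2 ratio of KO to WT left out 0 in opposite directions in at least 1 pair each way. Over all genes this count was not made, so the 7 are not shown to exceed other genes. Intervals leaving out 0 in either direction were held by 72.6% and 81.3% of all genes in SAT on HFD and on chow. In VAT and muscle they were held by 51.3% and 55.9%. Each difference is between single pairs of libraries, so it was not tested against replicates. The largest differences were those of *Cdkn1a* and *Cdkn1c*, each 2.91 on the log2 scale between SAT on chow (2.03 and 0.93) and SAT on HFD (−0.88 and −1.98), which compares the same depot under both diets. *Cdkn1b* differed by 1.31 between SAT on chow and muscle, and *Rb1* by 1.01 between SAT on chow and VAT. *Cdkn2c* differed by 1.31 and *Cdkn2d* by 1.23 between VAT and SAT on chow, where both were below 0. *Trp53* differed by 0.81 between SAT on HFD and SAT on chow. The SAT chow pair, in which *Malat1* was at 299 CPM in WT and 6005 CPM in KO, gave 1 end of each of these differences, and its part in them was not tested. For those that involve VAT, *Tert* did not show the labelled genotype.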

How the results depend on the processing

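Under the other scalings and with the length trend removed, the number of members beyond 2-fold kept to within 1.5 times the value reported in every pair, and no member was called across the pairs under any alternative, including without the block and without each pair. Between tissues, the count of members called moved from 0. With all genes of at least 1 count tested it was 1 for VAT over SAT, 2 for muscle over SAT, 1 for muscle over VAT and 3 for any difference. With DESeq2's tests it was 1, 2, 2 and 3 in that order. It was 1 for any difference among genes averaging 50 counts or more, and 1 for muscle over VAT and 2 for any difference with no genotype term. Leaving out each pair or library gave 0 to 2 for VAT over SAT and for muscle over SAT, 0 to 3 for muscle over VAT and 0 to 4 for any difference, the highest in each case without SAT chow libraries.

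Estimates that changed sign were not called under the alternative. Across the pairs, with library totals *Cdkn2c* was 0.045 and *Cdkn2d* 0.025, and without the block *Cdkn2c* was 0.011. For HFD over chow in SAT, *Cdkn2b*, *Cdkn2c* and *Cdkn2d* were 0.16, 0.0040 and 0.12 with DESeq2's size factors, 0.22, 0.065 and 0.18 with library totals (*Rb1* 0.0091), and 0.18, 0.050 and 0.17 with upper quartile factors. With no genotype term *Cdkn1a* was −0.026 and *Cdkn2b* 0.32. For VAT over SAT, *Cdkn2c* was 0.18, 0.046 and 0.042 under the 3 scalings. The cause was not tested.

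Leaving out each pair gave, across the pairs, −0.43 to 0.50 for *Cdkn1a*, −0.041 to 0.39 for *Cdkn1b*, −0.70 to 0.22 for *Cdkn1c*, −1.66 to 0.086 for *Cdkn2b*, −0.26 to 0.18 for *Cdkn2c* and −0.26 to 0.15 for *Cdkn2d*. Leaving out each pair or library gave, for HFD over chow in SAT, −0.97 to 1.49 for *Cdkn1a*, −0.43 to 0.75 for *Cdkn1b*, −1.74 to 0.48 for *Cdkn1c*, −1.36 to 2.22 for *Cdkn2a*, −0.50 to 1.37 for *Cdkn2b*, −0.69 to 0.30 for *Cdkn2c*, −0.56 to 0.38 for *Cdkn2d* and −0.57 to 0.067 for *Rb1*. For VAT over SAT it gave −1.06 to 0.13 for *Cdkn1b*, −5.21 to 0.15 for *Cdkn2a*, −0.47 to 0.52 for *Cdkn2c* and −0.84 to 0.10 for *Cdkn2d*. For muscle over SAT it gave −0.011 to 1.17 for *Cdkn1b* and −2.54 to 3.08 for *Cdkn2a*, and for muscle over VAT −0.16 to 0.39 for *Cdkn1c* and −0.61 to 0.094 for *Rb1*. A library left alone in its group is assumed to vary like the others. Of the edgeR and DESeq2 results of single members under the alternatives, 804 kept their direction and their side of the threshold. A further 44 passed the threshold and 52 changed sign. Of the log2 ratios of single members within a pair, 192 stayed inside the counting interval reported and 24 left it. Depth limits *Cdkn2a* and *Cdkn2b*, with at most 41 counts in a library.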
